A study of Arabidopsis thaliana with 6 samples.

Results

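Late embryogenesis abundant (LEA) proteins are small, very hydrophilic proteins that plants make when cells dry out, above all in the maturing seed. Some members of the family, among them several dehydrins, are made in leaves and stems instead, where cold, drought and the hormone abscisic acid raise them. They are thought to shield membranes and other proteins during water loss. 6 genes of this family were examined out of 13355 genes with a probe set of their own: M17 (AT2G41260), M10 (AT2G41280) and AT3G02480 as seed-type LEA genes, and COR47 (AT1G20440), LTI30 (AT3G50970) and COR15B (AT2G42530) as genes of vegetative tissue. The 6 and their division into 2 classes of 3 were chosen by their differences between the genotypes on these arrays, which were already known, so those differences are given as a description without a p-value and support nothing by themselves.

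The arrays compared wild-type Arabidopsis thaliana of the accession Col-0 with SPT4-R3, line 3 of plants in the same background that carry an RNA interference construct against SPT4, a partner of SPT5 in a factor that travels with RNA polymerase II during transcript elongation. SPT4-R3 is a single RNAi line. 3 samples of each genotype were taken. After 2 days of stratification the seedlings grew for 10 days under 16 h of light and 8 h of dark, and all aerial tissue was taken 2 h into the light period. No seeds or embryos were sampled, no cold or drought treatment is named in the labels, and the seed-type and vegetative classes could not be checked on these arrays.

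The array medians lay between 6.49 and 6.53 on the log2 scale. The lowest correlation of 2 arrays was 0.9979 within a genotype and 0.9755 between genotypes. SPT4-1 (AT5G08565), the measured SPT4 gene, was 2.00-fold lower in SPT4-R3 (log2 difference -1.0 ± 0.0753, SE, 3 arrays per genotype, limma adjusted p = 2.15e-06). Across all 22746 plant probe sets, 49.9% differed at an adjusted p under 0.05, so that a call is common here. Control probe sets for bioB, bioC and bioD, bacterial transcripts spiked in at hybridisation, read 0.39 lower in SPT4-R3 (two-sided exact permutation p = 0.1, the lowest possible with 3 against 3), and the poly-A controls 0.15 lower (exact p = 0.2). Centring the arrays on bioB, bioC and bioD took the median of all differences from -0.00333 to 0.39, and all values below are on the deposited scale unless another is named.

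Of the seed-type genes, M17 and AT3G02480 were near or little above the dim end of the arrays in wild type and bright in SPT4-R3, whereas M10 stayed dim in both. Of the vegetative genes, COR47 and LTI30 were lower in SPT4-R3 and COR15B slightly higher. The seed-type differences ranged from 0.35 to 5.31 with a median of 3.54, and the vegetative ones from -2.38 to 0.41 with a median of -0.79. Neither class therefore moved as a block. For each of the 6 genes the 3 values of one genotype lay beyond all 3 of the other, which was the case for 51.7% of all genes, and the same contrast chose the 6.

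M17 belongs with M10 to a small LEA group of its own, here called AtM, and is known from maturing seeds. On the wild-type arrays M17 read 3.72, 3.61 and 3.72 on the log2 scale. On the SPT4-R3 arrays it read 8.78, 9.17 and 9.04. The wild-type values lay inside the 3.46 to 3.84 spanned by the 18 readings of the trp controls, bacterial control probe sets taken here as the dim end of the arrays, so M17 could not be told from background there. The means were 3.68 ± 0.0635 (SD, n = 3) and 9.0 ± 0.199, a measured difference of 5.31 ± 0.0913 (SE). It was exceeded in the positive direction by 2 plant probe sets, the largest difference being 6.25. With wild type at the dim end, the true difference of M17 may be larger, here and below. Taking the highest trp reading of each wild-type array where it exceeded M17 itself, the signal was at least 38.7-fold higher in SPT4-R3. Because whole aerial parts were extracted, a change in RNA per cell and a change in the number of cells that carry the transcript cannot be told apart, for M17 and for every gene below.

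M10 lies close to M17 on chromosome 2, with 1 gene between them in the RefSeq gene order, yet its values were of another kind. M10 read 3.94, 4.06 and 3.99 in wild type, against 4.30, 4.5 and 4.24 in SPT4-R3. All 6 readings were above the trp range, and none exceeded 4.5. The difference was 0.35 ± 0.0734 (SE), a 1.27-fold change, and 3593 plant probe sets had a larger positive one. The large difference of M17 thus had no counterpart at M10, although both belong to the same LEA group and neighbourhood.

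AT3G02480 encodes a protein of the LEA_4 group, the group that also holds COR15B. It read 5.14, 5.01 and 4.96 in wild type, where all 3 values were above the trp range. In SPT4-R3 it read 8.52, 8.49 and 8.73. The genotypes were far apart compared with the spread within either, with means of 5.04 ± 0.0929 (SD, n = 3) and 8.58 ± 0.131. The difference of 3.54 ± 0.0767 (SE) was an 11.7-fold change, exceeded in the positive direction by 7 plant probe sets.

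COR47 is an acidic dehydrin of leaves and stems that is induced by cold, drought and abscisic acid. COR47 read 10.66, 10.68 and 10.56 in wild type, against 8.19, 8.33 and 8.23 in SPT4-R3. The 3 SPT4-R3 arrays were all lower, and still well above the trp range. The difference was -2.38 ± 0.0602 (SE), a 5.22-fold reduction from 10.63 ± 0.0643 (SD, n = 3) to 8.25 ± 0.0721. 71 plant probe sets had a more negative difference.

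LTI30, also called XERO2, is a basic dehydrin that binds membranes and accumulates at low temperature. LTI30 read 7.33, 7.41 and 7.51 in wild type, against 6.72, 6.55 and 6.61 in SPT4-R3. The direction was that of COR47, and the size smaller, at -0.79 ± 0.0670 (SE) or 1.73-fold. 1031 plant probe sets had a more negative difference than LTI30.

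COR15B is not a dehydrin but a chloroplast-targeted protein of the LEA_4 group, induced by cold like its tandem copy COR15A. COR15B read 6.25, 6.32 and 6.19 in wild type, against 6.59, 6.65 and 6.75 in SPT4-R3. All SPT4-R3 values were higher, against the direction of both dehydrins. The difference was 0.41 ± 0.0618 (SE), a 1.33-fold change that 3019 plant probe sets exceeded in the positive direction.

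**Figure D1:**
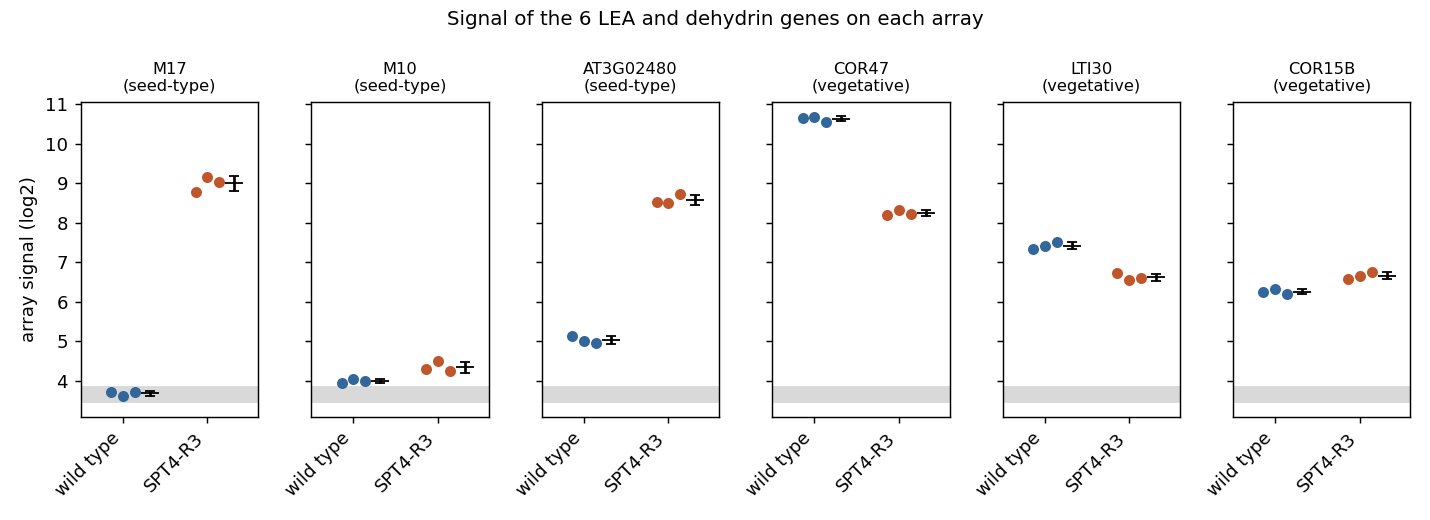
Log2 signal (vertical axis) of each of the 6 genes on the 3 wild-type (blue) and 3 SPT4-R3 (orange) arrays, with the mean and SD of each genotype in black; the grey band is the range of the trp control readings, 3.46 to 3.84. M17 leaves the band in SPT4-R3 and reads 8.78 to 9.17, M10 stays just above it, and COR47 goes from 10.56 to 10.68 in wild type to 8.19 to 8.33.

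Within a genotype the members did not all peak on the same array, and 3 arrays cannot show whether they vary together. The range over the 3 wild-type arrays was 0.11 to 0.18 in the 6 genes. Over the SPT4-R3 arrays it was 0.14 to 0.26 in 5 of them and 0.39 in M17, the widest. The highest SPT4-R3 array was replicate 2 for M17, M10 and COR47, replicate 3 for AT3G02480 and COR15B, and replicate 1 for LTI30. M17 and AT3G02480, with the 2 largest differences, were thus highest on different arrays. The class mean of the seed-type genes was 4.24 ± 0.0241 (SD, n = 3 arrays) in wild type and 7.31 ± 0.0966 in SPT4-R3, and that of the vegetative genes 8.10 ± 0.0310 and 7.18 ± 0.0153. Both class means hide the genes that departed from their class, M10 and COR15B.

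The other measured LEA genes had small differences. Of 43 other LEA genes listed, 27 had a probe set of their own. In the limma fit 5 fell in SPT4-R3, none was called higher and 22 were not called. Of all 13355 genes 46.3% were called, 24.7% higher and 21.6% lower. All 5 LEA calls were among the 21 of the 27 genes with a mean under 5. Among all genes that dim, 18.4% were called. At an unadjusted p under 0.05, 8 of the 27 differed and 1 of these, COR15A, was higher. The differences spanned -0.49 to 0.23, and none came near M17, AT3G02480 or COR47. Those members were chosen for their differences and left out of this list, so the gap is partly built in. The median of the 27 differences was -0.11, against -0.00333 for all genes. Without the dimmest 30% of probe sets it was 0.00333 over the 8 LEA genes left, against 0.0267 for all probe sets left. Of these 8, 1 was called higher and 2 lower. The count depended on scaling: on the bioB, bioC and bioD scale 22 were higher and none lower, with a list median of 0.28 beside the 0.39 of all probe sets, and on the poly-A scale 2 were higher and 1 lower. It also depended on wild-type replicate 2, without which 1 gene was higher and 7 lower.

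The 5 LEA genes that fell did so by little and from a low signal. AT2G42560, an LEA_4 gene that lies near COR15B with 2 genes between them, read 5.13, 4.90 and 4.89 in wild type, against 4.5, 4.56 and 4.40 in SPT4-R3, a difference of -0.49 ± 0.0760 (SE, adjusted p = 0.000391). It moved against COR15B. AT2G03740, also of LEA_4, fell by 0.39 ± 0.0968 (adjusted p = 0.00701). LEA4-5 (AT5G06760), a LEA_1 protein known from seeds and from water deficit, fell by 0.25 ± 0.0558 (adjusted p = 0.00354), and AT3G22490, a seed maturation protein, by 0.24 ± 0.0613 (adjusted p = 0.00760). AT2G23110 differed by -0.25 ± 0.0903 (adjusted p = 0.0446) and lost its call without wild-type replicate 3 (adjusted p = 0.114) and without SPT4-R3 replicate 1, 2 or 3 (0.0693, 0.140 and 0.119), and also under quantile normalization (0.0665) and on the poly-A scale (0.542). AT2G03740, LEA4-5 and AT3G22490 lost their calls on the poly-A scale too (limma adjusted p = 0.101, 0.514 and 0.557). Only AT2G42560 kept its call there (adjusted p = 0.0154). On the bioB, bioC and bioD scale none of the 5 stayed lower at the threshold, and all but AT2G42560 had a positive difference.

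The nearest relatives of the members were mostly dim. Among all genes with a mean under 5, 18.4% were called, against 46.3% of all genes. Among 4 other dehydrins none was called, with differences from -0.13 to 0.23, the latter for AT4G38410 (adjusted p = 0.158 in limma). AT1G54410, also called HIRD11, was a bright dehydrin with 11.58, 11.68 and 11.59 in wild type, against 11.69, 11.68 and 11.70 in SPT4-R3, a difference of 0.07 ± 0.0526 (SE). This contrasts with COR47, also bright in wild type. Among 12 other LEA_4 genes, relatives of AT3G02480 and COR15B, 2 fell and none rose. COR15A (AT2G42540), which lies next to COR15B with no gene between, read 7.33, 7.54 and 7.45 in wild type, against 7.67, 7.60 and 7.56 in SPT4-R3. Its difference of 0.17 ± 0.0655 had the sign of COR15B but an adjusted p of 0.0543. It passed without wild-type replicate 2 (adjusted p = 0.0242) and without the dimmest 30% of probe sets (0.0432). On the poly-A scale its difference was 0.32 (adjusted p = 0.0227), and on the bioB, bioC and bioD scale 0.56 (1.78e-07). Both scales shift all genes alike, by control differences with an exact permutation p of 0.2 and 0.1. These 2 passes therefore say little about COR15A itself.

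Most of the family was dim, which bears on what a call can show. The mean over 6 arrays was under 5 for 21 of the 27 genes, a limit set after the values were seen. Among all genes under that limit 18.4% were called, and at or above it 64.1%. The 6 brighter LEA genes, chosen after their values were seen, were AT1G54410, AT2G44060, AT2G46140, DI21 (AT4G15910), COR15A and AT2G23120. None of the 6 was called in limma (1 had an unadjusted p under 0.05, COR15A), and their differences lay between -0.11 and 0.17. DI21, a drought-induced gene of LEA_3, read 8.72, 8.74 and 8.72 in wild type, against 8.61, 8.77 and 8.76 in SPT4-R3. For 4 of the 27 genes the means of both genotypes were no higher than the top of the trp range, so a change below that level could not have been seen. The other listed differences without a call were -0.17 for AT5G44310, -0.17 for AtLEA4-1 (AT1G32560), -0.13 for AT4G13230, -0.13 for AT4G39130 and -0.12 for AT2G18340.

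**Figure D2:**
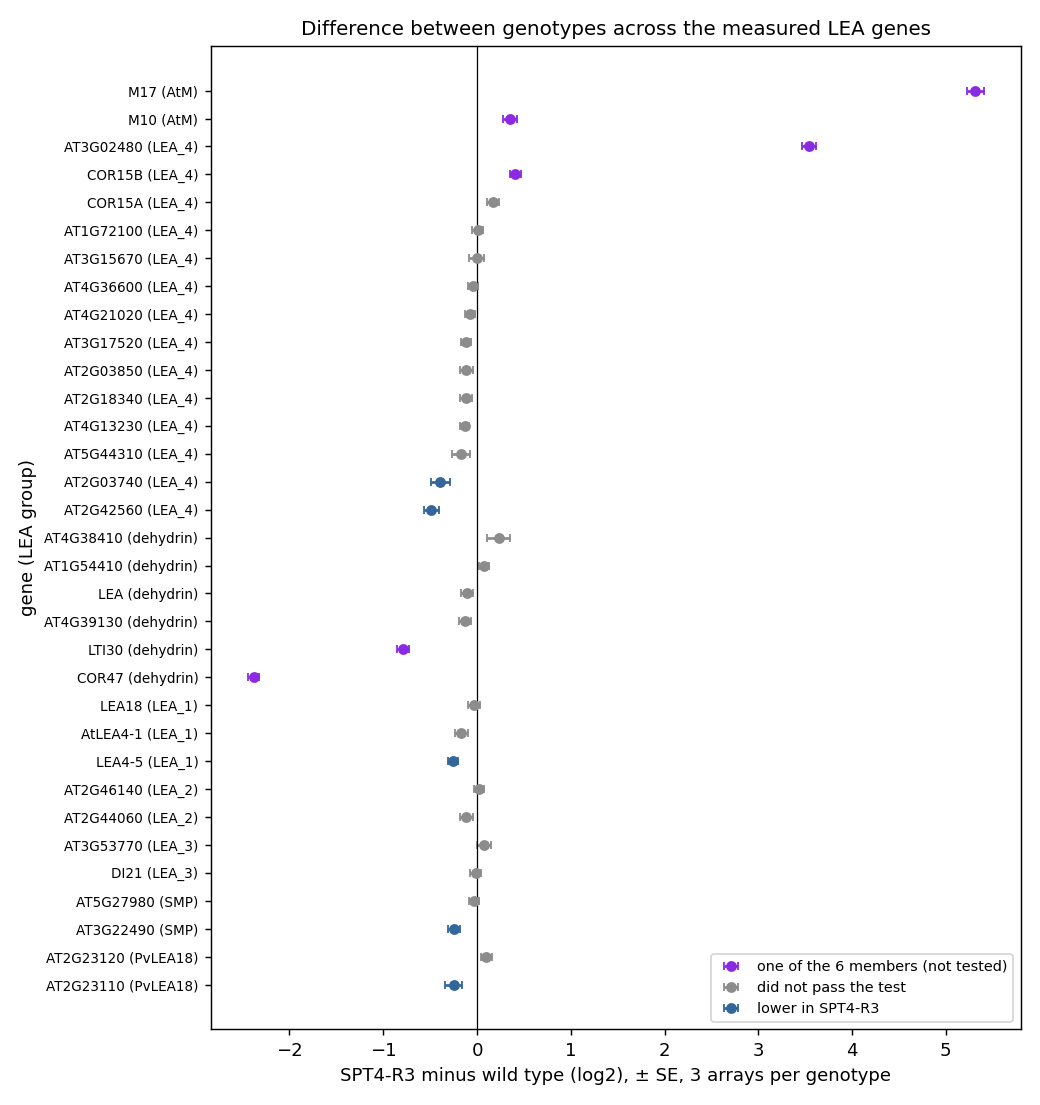
Difference between SPT4-R3 and wild type on the log2 scale (horizontal axis, mean ± SE, 3 arrays per genotype) for the 6 members in purple and 27 other LEA genes, ordered by LEA group and then by difference. The other LEA genes lie between -0.49 and 0.23, with the 5 that fell in blue, while M17 stands at 5.31, AT3G02480 at 3.54 and COR47 at -2.38.

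Genes of seed filling stayed dim beside M17. Of 23 listed genes of seed storage proteins and oil bodies, which mark maturing seeds, 6 were measured. All 36 readings lay between 3.49 and 5.08, and the mean of the list per array was 4.22 to 4.30 in wild type and 4.27 to 4.31 in SPT4-R3. PAP85 (AT3G22640), a storage protein of the vicilin type, rose from 4.37 ± 0.0265 (SD, n = 3) to 4.67 ± 0.0862 (adjusted p = 0.00162 in limma), and the other 5 did not pass, with a list median of -0.0217. For OLEO3 (AT5G51210), an oleosin that coats oil bodies, the difference was -0.16 ± 0.0811 (SE, adjusted p = 0.132). All 6 had a mean under 5, and of all genes that dim 18.4% were called. On the bioB, bioC and bioD scale all 6 were called higher, as were 17406 of all 22746 probe sets. The cruciferin and albumin genes that dominate seed protein were not analysed here except AT1G03890, which read 3.49 to 3.74.

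Of 35 listed regulators of seed and abscisic acid responses, 2 were measured and 1 was called higher, beside 24.7% of all genes. EEL (AT2G41070), a bZIP transcription factor of the maturing seed that acts on promoters of LEA genes, read 4.80, 4.80 and 4.70 in wild type, against 5.51, 5.46 and 5.53 in SPT4-R3. It rose by 0.73 ± 0.0545 (SE, adjusted p = 2.03e-06). AT5G42910, the other, read 3.73 to 3.86 and did not pass (adjusted p = 0.456). None of 20 listed genes of abscisic acid and drought response was analysed here, so the vegetative members could not be set beside their usual companions.

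Of 20 listed genes of cold response besides the members, 4 were measured, and 2 of them rose strongly. 3 of the 4 were called, 2 higher and 1 lower. Of all genes 46.3% were called, and 64.1% of those with a mean of at least 5. AT4G30650 and AT4G30660, neighbouring genes of a family of very small hydrophobic membrane proteins responsive to low temperature and salt, lie side by side on chromosome 4. AT4G30650 read 5.94, 6.06 and 6.15 in wild type, against 8.33, 8.46 and 8.42 in SPT4-R3, a 5.11-fold rise (log2 difference 2.35 ± 0.0669, SE, adjusted p = 3.66e-09). AT4G30660 read 7.05, 7.35 and 7.27 in wild type, against 9.19, 9.26 and 9.56 in SPT4-R3, a 4.33-fold rise (2.11 ± 0.105, adjusted p = 1.23e-07). Both went opposite to COR47 and LTI30. STZ (AT1G27730), a zinc finger repressor induced by stress, fell by 0.42 ± 0.0737 (adjusted p = 0.000895), a call lost on the bioB, bioC and bioD scale (-0.0233) and on the poly-A scale (-0.27, adjusted p = 0.0639). AT4G33905 differed by 0.10 and did not pass (adjusted p = 0.506).

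The tissue markers showed leaf RNA in every sample, and the listed root genes PYK10, JAL34 and JAL33 were bright in every sample as well. The 4 measured of 22 leaf genes averaged 12.82 to 12.84 per array in wild type and 12.30 to 12.35 in SPT4-R3, and 3 fell, among them LHCB4.2 (AT3G08940), an antenna protein of photosystem II, by 1.14, LHCB4.1 (AT5G01530) by 0.51 and RCA (AT2G39730), rubisco activase, by 0.27. Of 10 root genes 7 were measured and averaged 7.22 to 7.29 in wild type and 7.04 to 7.05 in SPT4-R3. 2 of them fell, the jacalin-related lectin genes JAL34 (AT3G16460) by 0.75 and JAL33 (AT3G16450) by 0.37. All 4 leaf genes and 4 of the root genes had a mean of at least 5. Of all genes that bright, 64.1% were called, and of those under 5, 18.4%. On the bioB, bioC and bioD scale RCA (0.12) and JAL33 (0.0233) turned and LHCB4.1 lost its call (-0.12, adjusted p = 0.269 in limma). Of the other 5, PYK10, a beta-glucosidase of roots, read 11.70 to 11.82, while EXPA7 (4.79 to 5.11), EXPA18 (5.08 to 5.19), AT4G26010 (4.11 to 4.36) and AT3G49960 (3.63 to 3.99) were dim, and none of the 5 was called on the deposited scale. The part of these shifts in the differences of the members was not tested.

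The chromosomal neighbours of M17, AT3G02480 and COR47 had much smaller or opposite differences. The nearest measured gene on each side within 3 genes was taken, which gave 7 genes besides the members. 3 of the 7 rose and none fell, beside 24.7% of all genes higher and 21.6% lower, and on the bioB, bioC and bioD scale all 7 were called higher. All but AT3G50990 had a mean of at least 5, and of all genes that bright 64.1% were called. Beyond the nearest genes but within 3 places, AT3G02500 near AT3G02480 (-0.71) and AT2G42560 near COR15B (-0.49) were called lower. AT3G02450 near AT3G02480 (0.18) and AT1G20410 near COR47 (0.57) were called higher. AT2G41250, next to M17, read 11.29, 11.36 and 11.31 in wild type, against 11.37, 11.36 and 11.31 in SPT4-R3, a difference of 0.0267 ± 0.0515 (SE). AT1G20430, next to COR47, rose from 7.90 ± 0.193 (SD, n = 3) to 8.55 ± 0.0265 (adjusted p = 0.000141), opposite to COR47. AT2G42520, on the side of COR15B away from COR15A, rose by 0.86 ± 0.0715 (adjusted p = 4.53e-06), more than COR15B itself.

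On either side of AT3G02480, SAMDC (AT3G02470), an S-adenosylmethionine decarboxylase gene of polyamine synthesis, differed by -0.12 ± 0.0632 (adjusted p = 0.157), and AT3G02490 rose by 0.24 ± 0.0737 (adjusted p = 0.0223), a call lost without wild-type replicate 2 and without SPT4-R3 replicate 2 or 3 (adjusted p of 0.0797, 0.0912 and 0.0679) and under quantile normalization (0.0522). AT3G50990, near LTI30, differed by 0.00667 and did not pass (adjusted p = 0.948). The dehydrin genes that lie directly beside COR47 and LTI30, ERD10 and XERO1, were not analysed here.

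**Figure D3:**
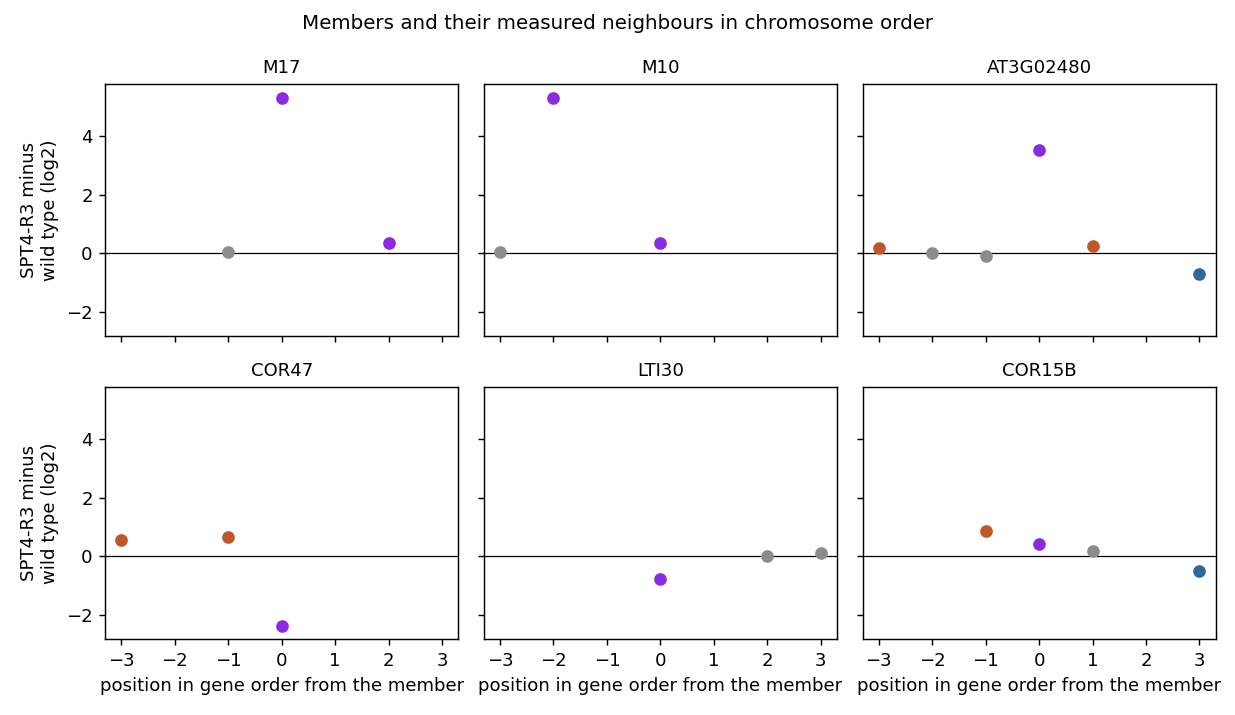
Difference between SPT4-R3 and wild type on the log2 scale (vertical axis, points with SE bars, mostly smaller than the points) for each member at position 0 and for measured genes up to 3 places away in the RefSeq gene order (horizontal axis). Members are purple, neighbours called higher orange, called lower blue and not called grey; beside M17 at 5.31 the next measured gene lies at 0.0267, and beside COR47 at -2.38 at 0.65.

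Among single-gene probe sets outside the members, the profile over the 6 arrays most like that of M17, measured as the root mean square distance after each gene was centred on its own mean, was that of AT3G26460, at a distance of 0.52. AT3G26460 read 3.89, 3.99 and 4.22 in wild type, against 8.47, 8.29 and 8.38 in SPT4-R3. AT4G23680 and AT4G34950 followed at 0.83 and 0.91, with differences of 4.35, 3.70 and 3.52 for the 3 genes, all smaller than that of M17. Members and probe sets without a single gene were not ranked. Within the same set of genes COR47 had nearer companions: AT1G05340 at a distance of 0.0406, AT4G33666 at 0.0468 and AT4G33420, a class III peroxidase gene, at 0.0707. AT1G05340 read 6.60, 6.67 and 6.58 in wild type, against 4.16, 4.33 and 4.30 in SPT4-R3. These genes were found by their likeness in the same arrays, so their differences were not tested. The profiles were centred but not scaled, so a distance rests largely on how close the differences are in size. The smaller distances for COR47 are therefore no measure of closer regulation.

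The sizes, but not the directions, of the member differences depended on the scaling. Quantile normalization and centring on the array median left all 6 within the spread between replicates. On the bioB, bioC and bioD scale the differences were 5.71 for M17, 0.74 for M10, 3.94 for AT3G02480, -1.99 for COR47, -0.40 for LTI30 and 0.80 for COR15B. This scaling shifts all genes alike, so the order of the 6 and the distances between them stayed as deposited, while the small differences of M10 and COR15B grew and that of LTI30 shrank.

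**Figure D4:**
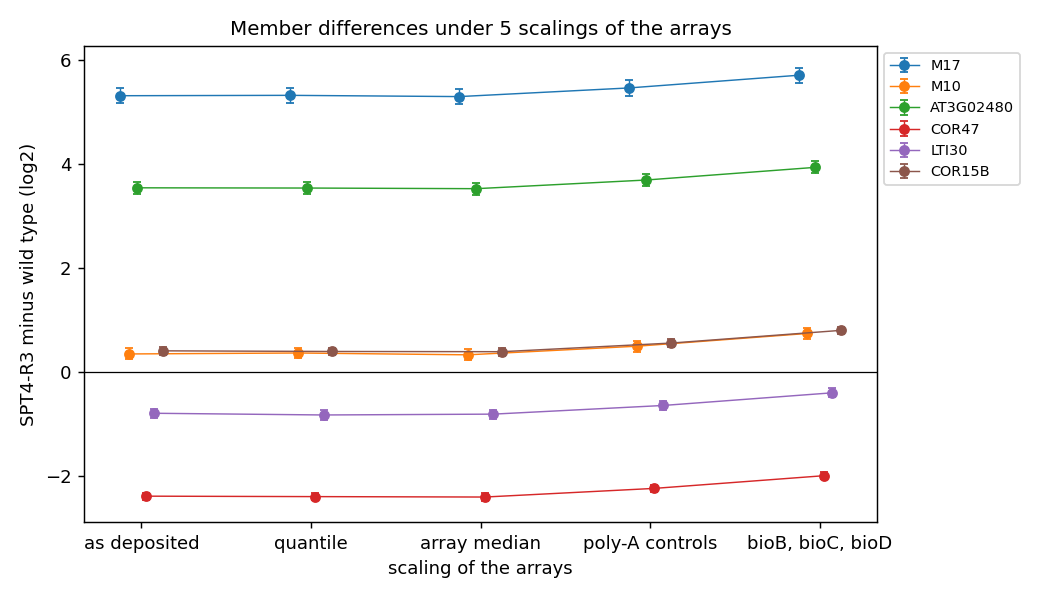
Difference between SPT4-R3 and wild type on the log2 scale (vertical axis) for the 6 members under the deposited scaling and 4 others (horizontal axis); bars are the SD between replicates on the deposited scale, pooled over the genotypes. All 6 keep their side of 0, with LTI30 closest to it from below at -0.40 under the bioB, bioC and bioD scaling.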

How the data were processed

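6 Affymetrix ATH1 arrays were compared, 3 per genotype, grouped by the sample titles. The deposited values are log2 signals, 1 per probe set and array, made by the authors in Affymetrix Expression Console per the submitters' processing notes. The log2 scale was read from the values. The sources used here do not give the background correction, normalization or any batch, no detection call was used, and the number of arrays limits the precision. Replicates are called biological in the labels but no separate sowings are named, and p-values cover no more than the spread among these 6, which may be partly technical.

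Of 22810 probe sets 64 were controls. The annotation gave 1 gene to 13513 of the other 22746, several to 503 and none to 8730, and 13436 of the 13513 matched RefSeq (TAIR10.1), used for names and gene order only. Where a gene had several probe sets, the brightest stood for it. All 22746 were fitted with limma 3.58.1 in R 4.3.3 (lmFit, eBayes, two-sided, Benjamini-Hochberg, threshold 0.05), and counts were made in Python 3.11.15. Simulated data had 200 changed probe sets among 22746, far fewer than the 11351 called here. They gave back 9 of 50 changes at 0.25 log2, 40 of 50 at 0.5, 49 of 50 at 1 and all 50 at 2. There were 5 false calls. The Benjamini-Hochberg cut-off depends on the share of changed probe sets, so these counts do not give the recovery in the real data.

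Members and lists were chosen with earlier results of these data known. Genes named were the members, the 12 other LEA genes with the largest differences, all nearest neighbours and called genes within 3 places of members. Also named were up to 4 called genes of each further list (2 where none was called) and the 3 nearest profiles of M17 and COR47. The LEA groups and the brighter LEA genes were added after values were seen. A list of genes annotated as LEA by description could not be made, since the gene table holds none. Same-numbered replicates were not paired (deviations correlated at -0.24, -0.126 and -0.0645). Alternatives were quantile, array-median, poly-A and bioB, bioC and bioD scaling, removal of the dimmest 30%, trend and robust moderation, a replicate block, treat at 0.5 log2 and each array left out.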

Additional observations from a re-analysis of the deposited data

How the results depend on the processing

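The 6 member differences kept their direction under every scaling, the replicate block and each array left out. Leaving out 1 array gave 5.23 to 5.42 for M17, 0.27 to 0.40 for M10, 3.47 to 3.60 for AT3G02480, -2.42 to -2.35 for COR47, -0.84 to -0.74 for LTI30, 0.37 to 0.45 for COR15B and 4.25 to 4.43 for the gap of 4.33 between the class medians. The gap is the difference of AT3G02480 minus that of LTI30, the middle genes of their classes. Its direction was fixed by the choice of members, and without wild-type replicate 1 it moved beyond its replicate SD. The 6 member differences moved beyond the replicate SD on 2 scales, which shift all genes alike. On the bioB, bioC and bioD scale they were 5.71, 0.74, 3.94, -1.99, -0.40 and 0.80 in the same order, and on the poly-A scale 5.46, 0.50, 3.69, -2.23, -0.64 and 0.56. Calls over all probe sets, 11351 on the deposited scale (52.9% of them higher), numbered 18995 on the bioB, bioC and bioD scale (91.6% higher), 9404 on the poly-A scale (73.6% higher), 2422 by treat and 9959 to 10768 with 1 array left out.

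Called LEA genes, 5 of 27, numbered 22 on the bioB, bioC and bioD scale, 3 on the poly-A scale, 3 of 8 without the dimmest 30%, 0 by treat and 4 to 8 with 1 array left out. Seed storage calls, 1 of 6, became 6 on the bioB, bioC and bioD scale, 0 by treat, 0 of 1 without the dimmest 30%, and 1 to 2 with 1 array left out. Regulator calls, 1 of 2, became 2 on the bioB, bioC and bioD scale. Root calls, 2 of 7, became 6 there, 1 on the poly-A scale, 1 by treat and 2 to 3 with 1 array left out. Leaf calls, 3 of 4, fell to 1 by treat. Neighbour calls, 3 of 7, became 7 on the bioB, bioC and bioD scale and 1 by treat. Treat asks for more than 0.5 log2, and removal of dim probe sets leaves fewer genes to test.

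On the bioB, bioC and bioD scale 19 of the 27 LEA genes went from a negative to a positive difference. Among genes named in the text and called on either scale, those that turned were AT2G03740 (0.00333), LEA4-5 (0.14), AT2G23110 (0.15), AT3G22490 (0.15), AT5G44310 (0.22), AtLEA4-1 (0.23), AT4G13230 (0.26), AT4G39130 (0.27), AT2G18340 (0.28), AT2G44060 (0.28), DI21 (0.38), OLEO3 (0.23), AT1G03890 (0.33), AT5G42910 (0.34), RCA (0.12), JAL33 (0.0233), PYK10 (0.38), EXPA7 (0.28), AT4G26010 (0.39), AT3G49960 (0.24) and SAMDC (0.28). With the replicate block 5 LEA genes were called, all lower, 3 neighbours, and 10670 probe sets, and no other count changed by over 1.5 times. The numbers do not pair the samples. No detection call was used, so signal over background limits every value near the trp range.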
